A study of Mus musculus with 2 samples.

Results

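The Fanconi and homologous recombination genes are 37 genes whose products repair DNA crosslinks and double-strand breaks, taken by gene symbol from the deposited annotation of the array, which carried 52 probes for them. They were described in isolated islets of C57BL/6J mice 8 weeks of age, taken 3 days after surgery. The sham group had a sham operation, and the pancreatectomy group had 60% of the pancreas removed. The mice are labelled by strain only, with no transgene or drug named for either group, and the labels do not give sex or whether animals were pooled. Each group is 1 sample with 4 replicate arrays, 8 one-colour arrays in all, and the labels do not say whether the replicates are separate animals or islet preparations. The p-values reflect the scatter among the arrays alone, part of which may be technical. Of the 37 genes, 33 were measured, meaning that at least 1 probe stood well above background on 4 or more of the 8 arrays, and 4 were below that filter. The filter left 30858 features in all, of which 18638 carried a gene symbol.

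The Fanconi pathway removes crosslinks between the strands of DNA, which block replication forks. A core complex of Fanconi proteins with the ubiquitin ligase FANCL marks the FANCD2 and FANCI pair, which then guides nucleases to the lesion, and the resulting break is repaired by homologous recombination. In that process the MRN complex and its helpers trim the broken ends, BRCA2 with PALB2 prepares the trimmed strand for pairing with intact DNA, RAD54 proteins drive strand exchange, helicases and nucleases resolve the joined molecules, and the kinases ATM and ATR signal the damage. Homologous recombination copies a sister chromatid and works mainly in the S and G2 phases. Most adult beta cells are quiescent, and loss of pancreatic tissue in rodents is a classic stimulus for beta cells to divide.

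Arrays differed in brightness, with a 75th percentile of the processed signal from 178 to 655 in the sham group and from 280 to 640 in the pancreatectomy group, and sham replicate 3 was the dimmest. Levels are therefore given as log2 signal after scaling to that percentile, and a change is the mean of the pancreatectomy arrays minus the mean of the sham arrays with its standard error (SE). All 10 beta-cell markers listed, insulin among them, stood well above background on all 8 arrays. Hepatocyte markers lay 5.09, 5.20 and 4.28 above the sham mean, as a mean over 10 genes on the log2 scale, on sham replicate 4 and pancreatectomy replicates 1 and 4. B and plasma cell markers lay 4.81 above it, and markers of intestinal epithelium 2.15 above it, on pancreatectomy replicate 3. Over all features 168 rose (0.544%) and 26 fell (0.0843%) at an adjusted p of 0.05 in limma, with a median change of -0.04.

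In all, 9 of the measured genes rose after pancreatectomy and none fell, and they came from 4 of the 6 steps of the pathway. They were Fanca and Fanci of the Fanconi pathway, Rad51ap1, Rad54b and Rad54l among the strand exchange factors, the fork ligase Rad18, the resection nuclease Exo1, polymerase theta (Polq) and the nuclease subunit Eme1. The count was 9 of 33 higher and 0 of 33 lower in limma with Benjamini-Hochberg adjustment over all 30858 features, against 0.544% and 0.0843% of all features, and 17 had an unadjusted p under 0.05, against 10.5% of all features. Rad54b could enter the test only through the group where it was high, and without it the count was 8 of 32. The other 24 did not pass, and they included every measured gene of the BRCA and mediator group and of the checkpoint group. The BRCA and mediator group still had the highest median change of the 6 groups, 1.43, against 0.17 in the checkpoint group. In it Brca2 lay just outside the threshold (limma adjusted p = 0.062). Bard1 passed by a dimmer probe when each probe was a feature, but not by its brightest. The median change was 0.45 over the 33 measured genes, and 0.46 over all 37 without the filter, where the median of all features was -0.06. In 15 of the 33 the lowest pancreatectomy array lay above the highest sham array, which held for 2.99% of all features, and in 2 (Fance and Rad52) the reverse held, as for 5.30% of all features. The 17, the 15 and both medians include Rad54b, so they are not free of that filter effect. They also include Brip1, which was well above background on 1 sham array and 3 pancreatectomy arrays. In whole islets, more cells that carry a transcript and more of it per cell cannot be told apart.

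The size of the rises depended on how the signal was computed. Normexp changed the background correction, took each spot's median signal and added an offset of 50, and these were not tested apart. With normexp and the percentile shift the changes were 1.78 for Fanca, 1.42 for Fanci, 2.42 for Rad51ap1, 1.495 for Exo1 and 0.94 for Eme1. They were 0.90 for Rad54b, 0.73 for Rad54l, 0.72 for Polq and 0.56 for Rad18. All 9 stayed positive and only Rad51ap1 passed, so the fold values given for each gene hold for the percentile-scaled processed signal alone.

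**Figure D1:**
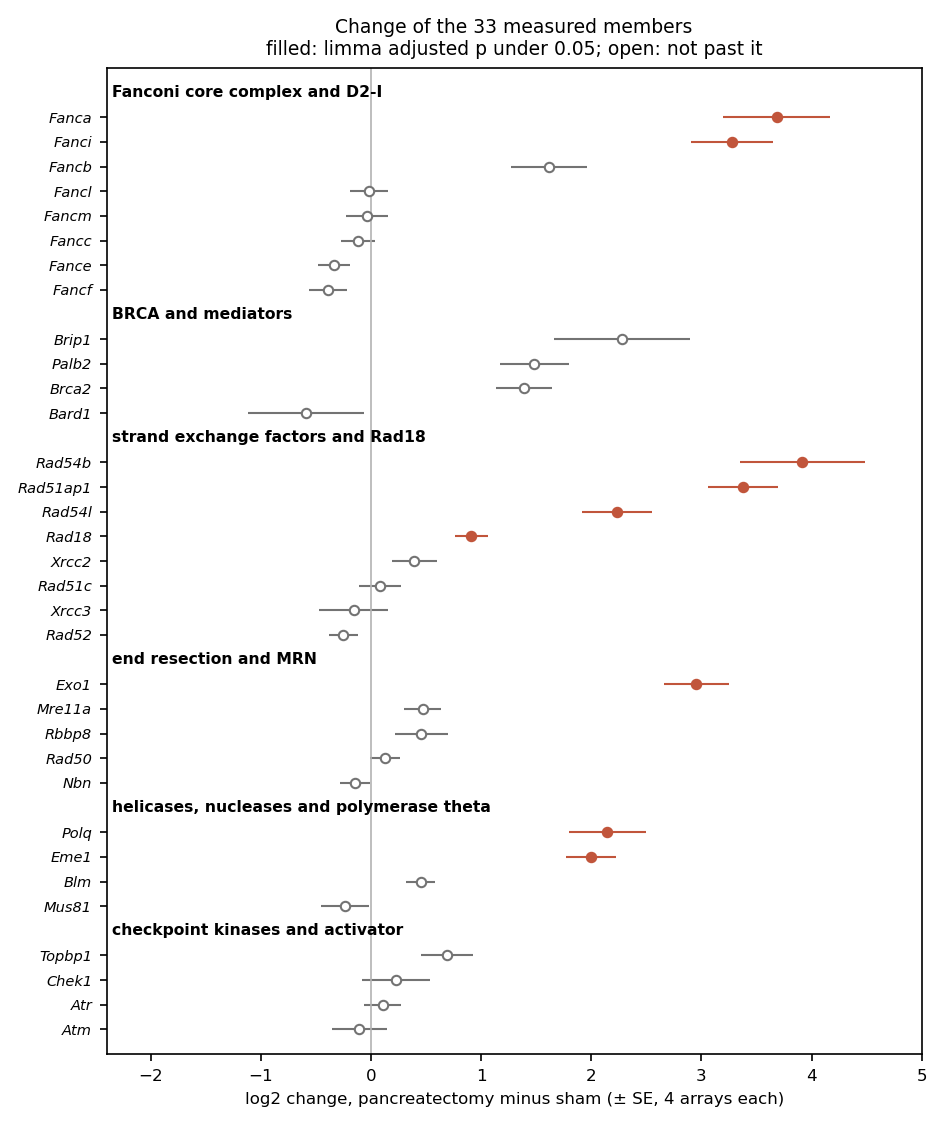
Change of each of the 33 measured genes (points, x axis in log2 units, pancreatectomy minus sham) with its SE as a bar, 4 arrays in each group, grouped by step of the pathway. The 9 filled points passed an adjusted p of 0.05 in limma, lie between 0.91 and 3.92, and none of them belongs to the BRCA or checkpoint groups.

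In the Fanconi core complex and the FANCD2 and FANCI pair, 2 of 8 measured genes rose (0.544% of all features) and 6 did not pass. The median change of the 8 was -0.03. Fanca encodes a core complex scaffold, and its probe lies at chr8:125792210-125792269 on the mm9 build. Sham replicates 1 to 4 gave a log2 signal of 4.67, 4.08, 3.02 and 4.64, and pancreatectomy replicates 1 to 4 gave 8.86, 6.84, 7.53 and 7.91; all further values are listed in this order. The groups were apart by more than 2 units at their nearest arrays, and sham replicate 3, the only array of this gene not well above background, was lowest. Fanca rose 12.9-fold, by 3.68 ± 0.49 (SE, limma adjusted p = 0.016), and lost the call without sham replicate 2 (3.68, adjusted p = 0.062) or pancreatectomy replicate 4 (3.64, adjusted p = 0.065). Fanci encodes the partner of FANCD2, and its probe lies at chr7:86595076-86595135. Its log2 signal was 3.52, 3.26, 3.51 and 4.31 on the sham arrays and 7.87, 6.20, 6.54 and 7.10 on the pancreatectomy arrays. Of the sham arrays, 3 were well above background. Fanci rose 9.70-fold, by 3.28 ± 0.38 (adjusted p = 0.0086), and kept its call in limma without any 1 of the 8 arrays. Another probe of Fanci that passed the filter gave -0.18, and the 2 probes averaged gave 1.55 (adjusted p = 0.024). The rise decided which of them stands for the gene, since on the sham arrays the other probe was brighter (mean 4.85 against 3.65). Brightness was always taken over all 8 arrays, so leaving out 1 array does not check that choice of probe. In both genes pancreatectomy replicate 1 was highest and replicate 2 lowest.

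Fancb, an X-linked core complex subunit, gave 5.97, 5.87, 6.85 and 5.91 on the sham arrays and 8.34, 7.55, 6.98 and 8.20 on the pancreatectomy arrays. Its groups did not overlap, but sham replicate 3 and pancreatectomy replicate 3 came within a small margin of each other, and its change of 1.62 ± 0.34 did not pass (adjusted p = 0.11). The other 5 measured subunits had changes from -0.39 to -0.02. They were Fancc, Fance, Fancf, Fancl, the ubiquitin ligase, and Fancm, a DNA translocase. The most negative was Fancf, with 10.61, 10.74, 11.13 and 10.81 on the sham arrays and 10.22, 10.50, 10.31 and 10.71 on the pancreatectomy arrays (-0.39 ± 0.17, adjusted p = 0.48). Fance gave 11.67, 11.86, 12.12 and 11.72 against 11.50, 11.54, 11.42 and 11.56, with no overlap (-0.34 ± 0.15, adjusted p = 0.47). Fancd2 and Fancg were below the filter. Fancd2 was well above background on 1 sham array and 2 pancreatectomy arrays, and its measured difference was 0.76. Fancg was above it on 2 sham arrays and 1 pancreatectomy array, and its difference was -0.10.

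**Figure D2:**
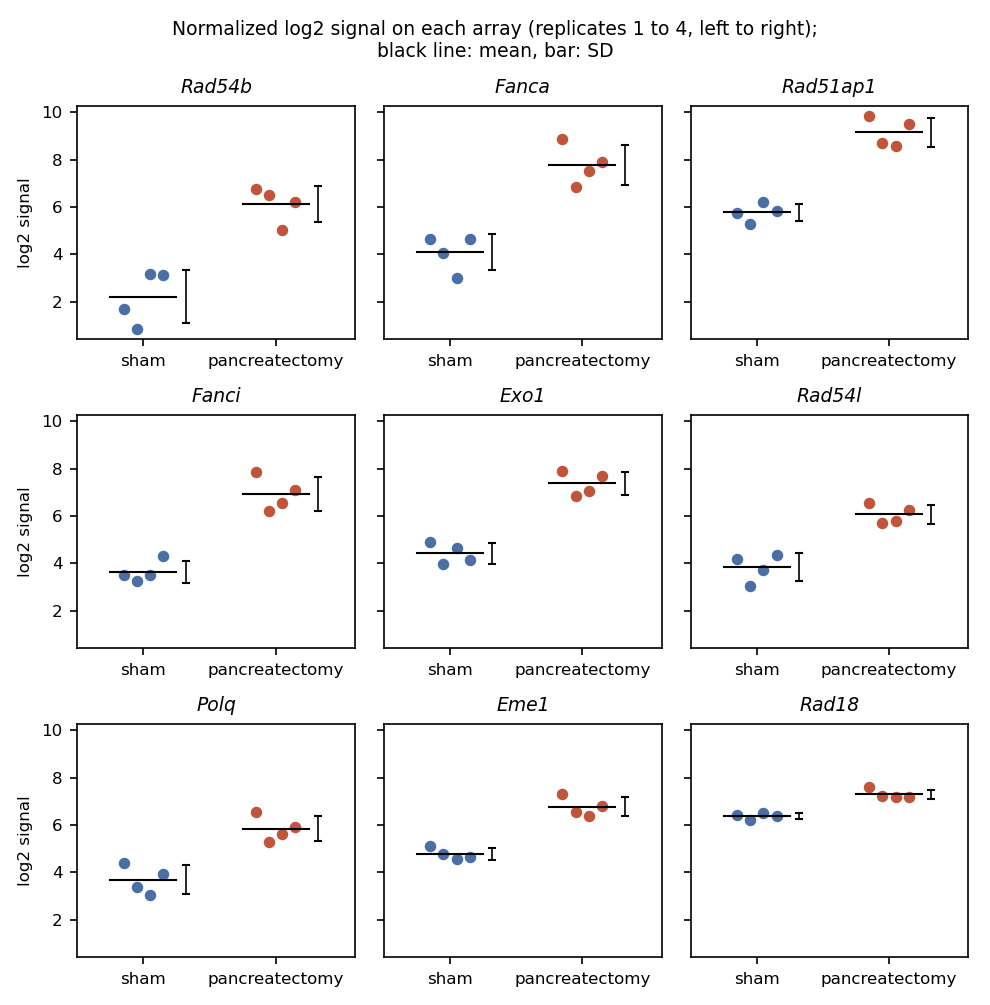
Log2 signal of the 9 genes that rose, on each sham array (blue) and each pancreatectomy array (red), replicates 1 to 4 from left to right, with the group mean as a line and the SD as a bar. In none of the 9 do the groups overlap, and for Rad54b no sham array was well above background.

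Of the BRCA genes and mediators, 4 of 5 were measured, none rose at the threshold, and 3 had an unadjusted p under 0.05 (10.5% of all features), with a median change of 1.43. Brca2 encodes a mediator of strand exchange, and gave 5.50, 5.85, 6.38 and 6.22 on the sham arrays and 7.90, 7.12, 7.07 and 7.43 on the pancreatectomy arrays. The groups did not overlap, and the change of 1.39 ± 0.26 lay just outside the threshold (adjusted p = 0.062). It passed in 4 of 26 alternatives, among them that of only probes above background on all 8 arrays (adjusted p = 0.045). Palb2, which joins BRCA1 to BRCA2, gave 3.07, 3.67, 3.09 and 2.87 against 4.23, 5.56, 4.39 and 4.43. Palb2 changed by 1.48 ± 0.31 without passing (adjusted p = 0.11), and pancreatectomy replicate 2 stood above the other 3. Brip1, a helicase that binds BRCA1, gave 1.95, 0.68, 3.07 and 3.26 against 5.38, 3.38, 4.36 and 4.94. Only 1 sham array and 3 pancreatectomy arrays were well above background for Brip1, the groups did not overlap, and its 2.28 ± 0.62 did not pass (adjusted p = 0.23). Brca1 itself was below the filter, with 1 pancreatectomy array well above background and a measured difference of 0.46.

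Bard1, the ubiquitin ligase partner of BRCA1, depended on the probe. Its brightest probe, at chr1:71074902-71074961 (mm9), gave 9.95, 7.99, 6.97 and 8.13 on the sham arrays and 7.69, 7.59, 7.66 and 7.73 on the pancreatectomy arrays. There the sham arrays spanned almost 3 units, with sham replicate 1 highest and the pancreatectomy arrays inside their range, and the change of -0.59 ± 0.52 did not pass (adjusted p = 0.72). The probe at chr1:71074294-71074353 gave 5.86, 5.78, 6.40 and 5.91 against 8.57, 7.32, 7.45 and 8.03, with no overlap. That probe alone gave 1.85 ± 0.29 and passed in limma with each probe as a feature (adjusted p = 0.033). The third probe, below the filter, gave a difference of 1.91. All 3 are annotated to the same RefSeq transcript. The 9 of 33 counted above holds Bard1 by its brightest probe, as not passing.

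Of the strand exchange factors, grouped here with Rad18, 4 of 8 measured genes were higher (3 of 7 without Rad54b) and 0 lower. Of all features 0.544% were higher and 0.0843% lower. The median change of the 8, Rad54b included, was 0.65. Rad51ap1 encodes a protein that stimulates strand exchange, and its probe lies at chr6:126873482-126873541. It gave 5.73, 5.30, 6.21 and 5.85 on the sham arrays and 9.84, 8.69, 8.58 and 9.49 on the pancreatectomy arrays, all well above background. Rad51ap1 rose 10.4-fold, by 3.38 ± 0.32 (adjusted p = 0.0072). Of the 9 genes it lost its call in the fewest alternatives, 4 of 26, and these were the comparisons of 2 or 3 sham arrays with 1 or 2 pancreatectomy arrays.

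Rad54b and Rad54l encode DNA translocases that act in strand exchange on chromatin. Rad54b, at chr4:11542714-11542773, gave 1.70, 0.86, 3.15 and 3.12 on the sham arrays and 6.75, 6.51, 5.05 and 6.20 on the pancreatectomy arrays. It was not well above background on any sham array and passed the filter only through the pancreatectomy arrays, so that a gene of this kind had to differ, and its call is no independent evidence. Against a floor on the sham arrays its level was 6.14-fold higher after pancreatectomy (fitted difference 3.92 ± 0.57, adjusted p = 0.022). That value holds for the percentile-scaled processed signal alone and is no lower limit. Over the alternatives the change of Rad54b was 0.88 at the lowest. Its call was lost without sham replicate 1 (3.75) or sham replicate 2 (3.47), and with any 1 pancreatectomy array left out it no longer passed the filter. Rad54l, at chr4:115769618-115769677, gave 4.19, 3.06, 3.74 and 4.38 against 6.57, 5.69, 5.78 and 6.25, with 2 sham arrays well above background. It rose 4.70-fold, by 2.23 ± 0.32 (adjusted p = 0.021), and lost the call without sham replicate 3 (2.20), pancreatectomy replicate 1 (2.07) or pancreatectomy replicate 4 (2.17).

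Rad18 encodes the ubiquitin ligase that marks PCNA at stalled forks, and had the smallest change among the 9. Its probe at chr6:112570622-112570681 gave 6.41, 6.20, 6.52 and 6.38 on the sham arrays and 7.59, 7.22, 7.17 and 7.19 on the pancreatectomy arrays. The spread within each group was small, with an SD of 0.13 and 0.20, and the groups did not overlap. Rad18 rose 1.88-fold, by 0.91 ± 0.15 (adjusted p = 0.041), and its other probe gave 1.19 and passed too. Leaving out any 1 array but sham replicate 3 took the call away, with changes of 0.81 to 0.95, and so did the slide row as a block (0.91, adjusted p = 0.091). The other 4 genes of the group did not pass and had changes from -0.25 to 0.39. These were Rad51c, Xrcc2 and Xrcc3, which act together in recombination complexes, and Rad52, an annealing protein. Xrcc2 had the largest change, with 5.95, 6.15, 5.91 and 6.00 against 6.93, 6.09, 6.12 and 6.44 (0.39 ± 0.20, adjusted p = 0.55), and only pancreatectomy replicates 1 and 4 lay above all sham arrays. Rad51c gave 14.33, 14.23, 15.03 and 14.48 against 14.58, 14.60, 14.57 and 14.64, and its groups overlapped. Rad52 gave 7.31, 7.32, 7.47 and 7.22 against 6.96, 7.11, 7.05 and 7.18, lower on each pancreatectomy array (-0.25 ± 0.13, adjusted p = 0.55).

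In the end resection and MRN group, 1 of 5 measured genes rose (0.544% of all features) and the median change was 0.46. Exo1 encodes a nuclease that chews back broken ends over long distances, and its probe lies at chr1:177838682-177838741. It gave 4.90, 3.99, 4.66 and 4.15 on the sham arrays and 7.91, 6.84, 7.07 and 7.67 on the pancreatectomy arrays, with 3 sham arrays well above background. Exo1 rose 7.74-fold, by 2.95 ± 0.30 (adjusted p = 0.0072), and kept its call in limma without any 1 of the 8 arrays. The 3 MRN subunits did not pass. Mre11a, the nuclease subunit, gave 8.28, 8.83, 8.65 and 8.71 against 9.17, 8.84, 9.08 and 9.25 (0.47 ± 0.17, adjusted p = 0.39), so that sham replicate 2 and pancreatectomy replicate 2 nearly met. Rad50, the zinc hook subunit, had 0.13 and Nbn, which recruits ATM, had -0.14. Rbbp8, which encodes the resection starter CtIP, had 0.46 with overlapping groups.

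Among the helicases, nucleases and polymerase theta, 2 of 4 measured genes rose (0.544% of all features), with a median of 1.23. Eme1 encodes the regulatory subunit of the MUS81 nuclease, which cuts branched DNA, and its probe lies at chr11:94506441-94506500. It gave 5.12, 4.78, 4.55 and 4.66 on the sham arrays and 7.33, 6.56, 6.40 and 6.82 on the pancreatectomy arrays. Of the sham arrays, 3 were well above background. Eme1 rose by 2.00 ± 0.23 (adjusted p = 0.0086), and kept its call without any 1 of the 8 arrays. Its catalytic partner Mus81 gave 8.51, 8.87, 9.58 and 8.87 against 8.75, 8.64, 8.77 and 8.72, with overlapping groups and a change of -0.24 ± 0.22. Whether the changes of Eme1 and Mus81 differ was not tested.

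Polq encodes the polymerase of an error-prone end joining route that uses short matching ends. Its probe at chr16:37095392-37095451 gave 4.41, 3.41, 3.06 and 3.93 on the sham arrays and 6.55, 5.30, 5.61 and 5.92 on the pancreatectomy arrays. Of the sham arrays, 3 were well above background. Polq rose 4.42-fold, by 2.14 ± 0.35 (adjusted p = 0.037), but kept its call only without sham replicate 1 or pancreatectomy replicate 2 when 1 array was left out, with changes of 1.91 to 2.22 in the other 6. With slide row added to the model it did not pass either (2.14, adjusted p = 0.065). Blm, the Bloom helicase, gave 7.24, 7.15, 7.10 and 7.03 against 7.74, 7.60, 7.52 and 7.47. Its groups did not overlap, and its change of 0.45 ± 0.13 did not pass (adjusted p = 0.27).

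No checkpoint gene passed, with 4 of 5 measured, changes from -0.11 to 0.69 and a median of 0.17. Topbp1, which activates ATR, gave 7.36, 7.15, 6.65 and 7.12 on the sham arrays and 8.26, 7.30, 7.69 and 7.78 on the pancreatectomy arrays. Pancreatectomy replicate 2 overlapped the sham arrays, and the change was 0.69 ± 0.24 (adjusted p = 0.37). Atm and Atr, the kinases that signal breaks and stalled forks, had -0.11 and 0.11, and Chek1, the kinase downstream of ATR, had 0.23. Chek2, downstream of ATM, was below the filter. It was well above background on no sham array and on 2 pancreatectomy arrays, where replicates 1 and 3 gave 5.25 and 4.38 and replicates 2 and 4 gave 1.97 and 2.62.

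Of the 37 genes, 14 had several probes, and 11 had several that passed the filter. In 6 of those 11 the probes lay within 0.5 of each other, and in 2, Bard1 and Fanci, they had opposite signs. The second Fanci probe, at chr7:86554409-86554468, gave 5.06, 4.85, 4.44 and 5.04 on the sham arrays and 3.05, 5.63, 4.62 and 5.40 on the pancreatectomy arrays. It had a change of -0.18, overlapping groups, and is annotated to a different transcript record than the RefSeq transcript of the brighter probe. The second Fanca probe, from a cDNA clone, stayed below the background limit on all 8 arrays. The second Palb2 probe had 0.23 against 1.48, and the second probes of Xrcc2 and Atr had 0.99 and 0.63 against 0.39 and 0.11. For Rad54b and Polq the second probe was below the filter, with differences of 1.53 and 1.08.

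**Figure D3:**
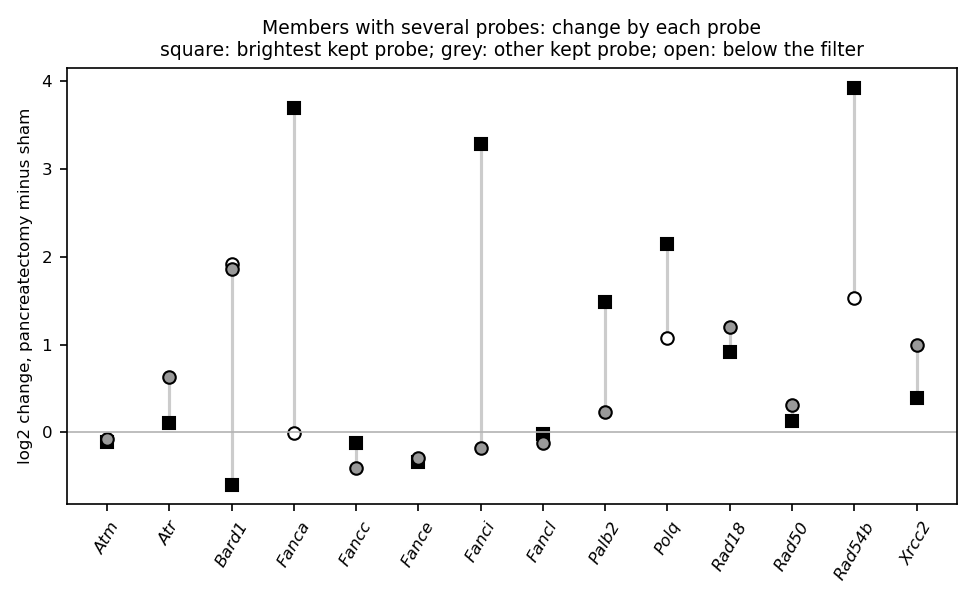
Change by each probe (y axis, log2 units, pancreatectomy minus sham) for the 14 genes with several probes; squares are the brightest probe that passed the filter, grey circles other probes that passed it and open circles probes below it. Bard1 and Fanci have probes that passed the filter on both sides of 0, and the 2 Rad18 probes lie at 0.91 and 1.19.

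The promoters are shown because many S-phase genes are known to be bound by E2F factors, at sites spelled TTTGGCGC or TTTCCCGC, and cell cycle genes by NF-Y at CCAAT. These letters, with TTTGAA (the cell cycle homology region) and GGGCGG (the GC box), were searched on both strands from 250 bases before to 50 after each RefSeq start on GRCm38.p6, where 30 of the 37 genes had a window. TTTCCCGC was found in 5 of the 30 genes, against 1.24% of 27025 genes in the table. The stretches around it are printed here 5′ to 3′ on the gene's strand, with the match in capitals in either orientation.
Brca2, chr5:150522427-150522486, plus strand: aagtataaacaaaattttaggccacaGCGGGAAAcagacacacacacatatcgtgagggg
Bard1, chr1:71103148-71103207, minus strand: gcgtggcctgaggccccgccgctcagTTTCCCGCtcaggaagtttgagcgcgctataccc
Rad51c, chr11:87404952-87404985, minus strand: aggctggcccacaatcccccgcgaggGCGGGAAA
Fancg, chr4:43010320-43010379, minus strand: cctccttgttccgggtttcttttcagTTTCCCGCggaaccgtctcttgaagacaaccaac
Chek2, chr5:110839805-110839864, plus strand: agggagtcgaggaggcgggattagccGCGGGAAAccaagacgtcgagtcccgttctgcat
TTTGGCGC was found in none of the 30, against 0.585% of all genes. Of these 5 genes, Brca2 had a change of 1.39, Bard1 -0.59 or 1.85 by its probes and Rad51c 0.08, and Fancg and Chek2 were below the filter. None of the 7 genes that rose and had a window held TTTCCCGC in it. A match describes letters and not a bound site, and its absence says only that these letters are not in this window.

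CCAAT was found in 16 of the 30 genes, against 41.1% of all genes, and GGGCGG in 18, against 38.2%. TTTGAA was found in 3 (Bard1, Polq and Eme1), against 20.2%. Among the 7 genes that rose and had a window, 3 held CCAAT and 3 held GGGCGG. The 250 bases before the start are printed for the 3 genes that rose by more than 3 units and had a window, with CCAAT and GGGCGG in capitals in either orientation.
Fanca, chr8:123318577-123318826, minus strand: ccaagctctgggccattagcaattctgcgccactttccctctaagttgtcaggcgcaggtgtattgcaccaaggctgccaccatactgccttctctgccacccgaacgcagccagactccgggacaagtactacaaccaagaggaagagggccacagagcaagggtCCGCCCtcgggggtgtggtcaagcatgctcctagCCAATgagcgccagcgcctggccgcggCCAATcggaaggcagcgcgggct
Fanci, chr7:79392088-79392337, plus strand: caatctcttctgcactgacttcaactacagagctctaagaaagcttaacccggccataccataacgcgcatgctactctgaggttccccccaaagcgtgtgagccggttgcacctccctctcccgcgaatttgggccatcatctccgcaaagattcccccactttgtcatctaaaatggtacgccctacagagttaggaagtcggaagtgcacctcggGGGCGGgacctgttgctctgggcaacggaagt
Rad51ap1, chr6:126939588-126939837, minus strand: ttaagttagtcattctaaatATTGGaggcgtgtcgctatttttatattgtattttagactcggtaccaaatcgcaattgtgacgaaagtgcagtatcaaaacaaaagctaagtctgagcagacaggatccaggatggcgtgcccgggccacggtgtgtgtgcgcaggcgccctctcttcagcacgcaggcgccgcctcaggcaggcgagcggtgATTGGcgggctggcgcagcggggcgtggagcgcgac
Fanca held 2 copies of CCAAT and 1 of GGGCGG in these bases, Fanci 1 copy of GGGCGG, and Rad51ap1 2 copies of CCAAT.

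Other genes of the same processes were counted in the same fit, where 0.544% of all features rose. Of 27 further homologous recombination genes reported, 2 rose, 0 fell and the median change was -0.02. In 7 of the 27 all pancreatectomy arrays lay above all sham arrays (2.99% of all features), and in 0 the reverse held (5.30%). An unadjusted p under 0.05 in limma was found for 7 of them, against 10.5% of all features. Fignl1, an ATPase of recombination, rose by 2.44 ± 0.27 (adjusted p = 0.0083), and Rpa2, a subunit of the protein that coats single-stranded DNA, by 1.08 ± 0.18 (adjusted p = 0.041). Of 18 further Fanconi and crosslink repair genes none passed and the median was -0.06. The largest change there was that of Ube2t, the ubiquitin-conjugating enzyme that works with FANCL (1.13 ± 0.50, adjusted p = 0.48). Of 20 further checkpoint genes 1 rose, Clspn, an adaptor between ATR and CHK1, by 3.09 ± 0.31 (adjusted p = 0.0072), with a median of 0.00.

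Other repair routes, meiotic recombination and p53 target genes were also listed. None of 12 non-homologous end joining genes passed (median -0.11), and the largest change was 0.34 for Aplf. None of 7 mismatch repair genes passed (median 0.08, largest Pms2 at 0.42), and none of 17 nucleotide excision repair genes did (median -0.20, largest Xpc at -0.41). In base excision and single-strand break repair 2 of 20 rose (0.544% of all features), the glycosylase Neil3 by 2.94 ± 0.43 (adjusted p = 0.024) and the flap nuclease Fen1 by 1.46 ± 0.25 (adjusted p = 0.043), with a median of 0.06. None of 12 meiotic recombination genes passed (median 0.08, largest Mnd1 at 0.50), and none of 19 p53 target genes did (median 0.06, largest Pmaip1 at 1.32 ± 0.57). The difference between these lists and the 33 genes was not tested.

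**Figure D4:**
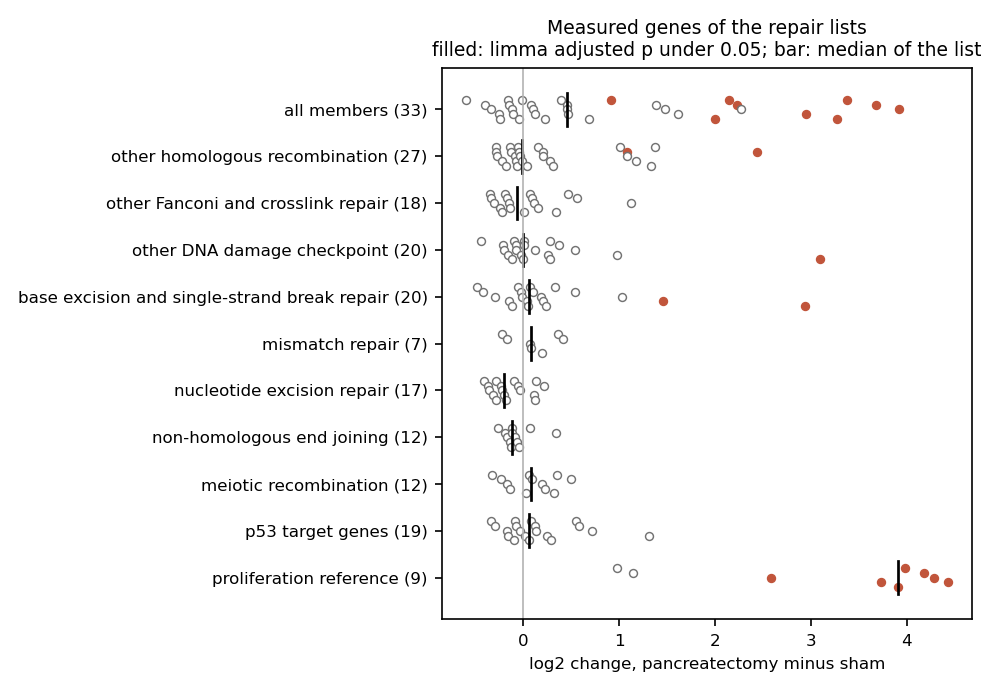
Change of every measured gene (points, log2 units, pancreatectomy minus sham) in the 33 genes and in 10 other lists, with the number measured in brackets, genes past an adjusted p of 0.05 in limma filled and the median of each list as a bar. The median is 0.45 for the 33 genes, between -0.20 and 0.08 for the other repair, checkpoint and p53 lists, and 3.91 for the proliferation reference.

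Markers of cell division were also higher on the pancreatectomy arrays. In a reference list of 9 measured proliferation genes, 7 rose (0.544% of all features), and the median change was 3.91. Its mean lay from -0.32 to 0.33 of the sham mean on the sham arrays and 4.02, 2.56, 2.96 and 3.45 above it on pancreatectomy replicates 1 to 4. The mean over the 33 genes lay from -0.15 to 0.09 on the sham arrays and at 1.23, 0.82, 0.76 and 1.06 on the pancreatectomy arrays. Replicates 1 and 4 were the highest of the group in both lists. How much of the change in the repair genes moves with the number of dividing cells was not tested.

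Markers of other cells also differed between the pancreatectomy arrays. In the fibroblast, stellate and pericyte list all 10 genes had a positive change and none passed. The log2 of the summed signal was 12.90 to 13.72 on the sham arrays and 13.33 to 16.88 on the pancreatectomy arrays. The brightest genes weigh most in such a sum. In the macrophage list 8 of 10 had a positive change and none passed. There the log2 of the summed signal was 14.55 to 15.22 against 14.44 to 15.02. The fibroblast mean was 2.52 and 1.94 above the sham mean on pancreatectomy replicates 1 and 3, and 0.01 and 0.07 on replicates 2 and 4. The macrophage mean was 1.71 and 1.35 on replicates 1 and 3, and -0.40 and -0.03 on replicates 2 and 4. The part of these cells in the change of the repair genes was not tested, and the cell type that carries the transcripts was not measured.

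**Figure D5:**
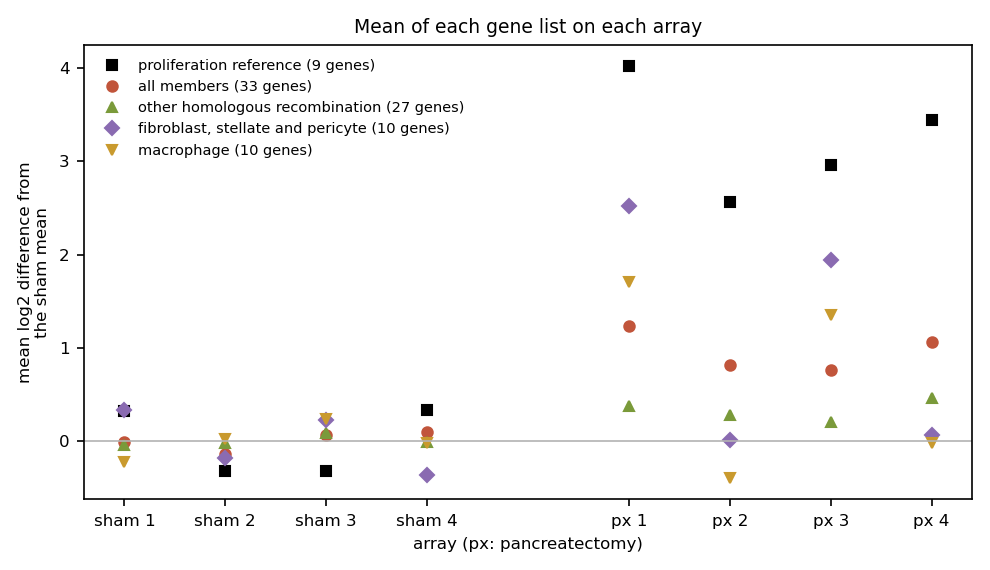
Mean log2 difference from the sham mean over the genes of 5 lists (y axis) on each of the 8 arrays (x axis; px, pancreatectomy). The proliferation list and the 33 repair genes lie above all sham arrays on each of the 4 pancreatectomy arrays, while the fibroblast and macrophage lists stand above the sham arrays only on pancreatectomy replicates 1 and 3.

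Without the 3 arrays that carried liver transcripts, 2 pancreatectomy arrays against 3 sham arrays, none of 31 measured genes passed in limma and 11 had an unadjusted p under 0.05, against 4.14% of all features. The changes there were 3.26 for Fanca, 2.94 for Fanci, 2.89 for Rad51ap1, 2.44 for Exo1 and 1.66 for Eme1. With sham replicates 1 to 3 against pancreatectomy replicate 2 alone, a setting chosen after the data were seen, the same 5 genes had 2.92, 2.77, 2.94, 2.33 and 1.74. With 1 array in that arm these are values without a replicate check. Within each slide row, 2 arrays against 2, the count was 0 as well, with 13 at an unadjusted p under 0.05 in each row, against 6.58% and 2.63% of all features. Fanci had 3.65 in the first row and 2.91 in the second, and Rad51ap1 3.75 and 3.01. Leaving out 1 array left 4 to 7 genes past the threshold, 4 without pancreatectomy replicate 4 and 5 without sham replicate 2 or pancreatectomy replicate 1. The groups lie in separate columns of the slide, 1 and 2 for sham and 3 and 4 for pancreatectomy, and slide column and group cannot be told apart.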

How the data were processed

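Gene expression was measured with one-colour Cy3 arrays of total RNA. The deposited array files give each spot's background-subtracted intensity (linear), and per the file headers the software was Feature Extraction 10.7.3.1. The submitters' processing notes give 9.1 as its version. The authors' deposited table gives 1 averaged log2 value per group, scaled by a 75th percentile shift in GeneSpring GX 12.5 per the file headers, and served for gene symbols and as a check. Its differences had r of 0.986 and a slope of 0.998 against those computed here across 30858 features, which are not independent replicates. Symbols were updated through Entrez IDs with a RefSeq gene table (GRCm38) that gave names and nothing else. Of 33325 probes that have a symbol, 30994 matched and 3525 took a new symbol. Probe positions are on mm9 per the file headers, and no exon or UTR annotation was used here.

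From these files, log2 intensity minus each array's 75th percentile was computed, with the mean percentile added back, after outlier spots (113 to 228 per array) were left out. No spot was saturated. Probes well above background on at least 4 of 8 arrays with at least 3 values per group were kept, and a gene is its brightest kept probe. The comparison used limma 3.58.1 in R 4.3.3, Benjamini-Hochberg adjustment and a threshold of 0.05, after the fit had been tested on simulated data. The number of arrays limits the precision, and the median SE was 0.22. The 6.14-fold value for Rad54b compares the mean of the pancreatectomy arrays with the mean of a floor on each sham array. The floor is the dimmest signal still well above background there or, if higher, that of the probe. Members and lists were chosen with earlier results of these data known. All 37 members are named, those past the threshold or changed by at least 1 with a value for each array, and of other lists the genes past it or, where none was, the 1 with the largest change. In the list of further homologous recombination genes 1 gene is not reported here. Promoter sequences are RefSeq's, and those of Xrcc2, Rad54b, Rad50, Exo1, Nbn, Fancd2 and Rbbp8 were not used here. Alternatives were other scalings, normexp background correction, other filters and probe rules, the slide row, array weights, an intensity trend and arrays left out. Normexp was run on the median signal of each spot, because the deposited columns used here hold no mean signal.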

Additional observations from a re-analysis of the deposited data

Results flagged for a closer look

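In 66 sets of 4 arrays (the 33 measured genes in each group), 4 held 1 array whose gap to the nearest of the others took up more of the range than Dixon's critical value for 4 samples allows. Chance gives about 1 in 20 such sets. Fancb gave 6.85 on sham replicate 3, against 5.87 to 5.97 on the other sham arrays. Chek1 gave 3.94 on sham replicate 3, against 5.12 to 5.34. Palb2 gave 5.56 on pancreatectomy replicate 2, against 4.23 to 4.43 on the others of its group. Rad18 gave 7.59 on pancreatectomy replicate 1, against 7.17 to 7.22.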

How the results depend on the processing

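The 9 genes that rose kept a positive change in every alternative that could be fitted. Their sizes fell with normexp (to 0.50 for Rad18 and 0.69 for Rad54l at the lowest). The count past the threshold among all measured genes, not the 9 alone, moved. It was 2 with no scaling between arrays, 4 with normexp and quantile scaling, 1 with normexp and the percentile shift and 4 with no filter. With probes above background on all 8 arrays it was 3 (Rad51ap1, Rad18 and Brca2), and no other gene of the 9 entered that setting. The count was 0 within either slide row, 0 without the 3 arrays with liver transcripts and 4 to 7 with 1 array left out. It was 6, 7 and 7 with quantile scaling, median scaling and the slide row as a block (which lost Polq and Rad18), and 9 to 12 under the other alternatives. All features past the threshold numbered 194. They were 18 with no scaling, 60 with normexp and the percentile shift, and 72 with no filter. With all 8 arrays above background there were 125, and 122 with slide row in the model. Within the rows there were 1 and 0, and with array weights 769 (407 higher, 362 lower). Without the liver arrays there were 0, and with 1 array left out 64 to 179. The median change of 0.45 became 0.22 and 0.24 with normexp, 0.081 with all 8 arrays above background (23 genes), 0.22 without the liver arrays, 0.25 with pancreatectomy replicate 2 alone and 0.21 to 0.47 with 1 array left out. Except where fewer genes or arrays enter, the cause was not tested.

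Changes near 0 turned sign. Fancl had 0.032 with quantile scaling, 0.10 and 0.060 with normexp and quantile scaling or the percentile shift, 0.070 in slide row 1, 0.103 with pancreatectomy replicate 2 alone, and -0.13 to 0.049 with 1 array left out, positive without sham replicate 2 or 3 or pancreatectomy replicate 1 or 3. Fancm had 0.30 in slide row 1, 0.022 with array weights, 0.14 with pancreatectomy replicate 2 alone, and -0.16 to 0.11 with 1 array left out, positive without sham or pancreatectomy replicate 3. Atm had 0.0042 without the liver arrays, 0.043 with pancreatectomy replicate 2 alone and -0.33 to 0.065 with 1 array left out, positive without sham replicate 2. Atr had -0.0016 to 0.19, negative without sham replicate 1, and Xrcc3 -0.43 to 0.068, positive without sham replicate 3. Chek1 had -0.036 in slide row 1, -0.13 with array weights and -0.099 to 0.37 with 1 array left out, negative without sham replicate 3. Rad51c had -0.021 with median scaling, where the median of all features was -0.14, -0.15 in slide row 2 and -0.016 to 0.25 with 1 array left out, negative without sham replicate 2. Bard1 had 0.63 as the mean of its probes and 0.14 in slide row 2, and Mus81 0.0082 in slide row 1. No paired analysis was possible because the labels number no replicates that the groups share. Dim probes limit Rad54b, Brip1 and the 4 genes below the filter most. Fanca, Fanci, Exo1, Polq and Eme1 stood well above background on 3 sham arrays, and Rad54l and Palb2 on 2. Their sham means therefore include arrays that were not well above background.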
